A study of Mus musculus with 20 samples.

Results

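Fatty acid uptake and triglyceride turnover were followed in mouse quadriceps through 10 genes: Cd36, Fabp3, Lpl, Slc27a1, Acsl1, Dgat1, Lpin1, Pnpla2, Lipe and Mgll. A gene was taken as a member when the scanner files gave its symbol as the name of a non-control probe; this rule uses no measured value, but the list of genes was drawn up with earlier results of these data known. These 10 of the 30397 gene names on the array had 17 of its 39429 probes, and 16 of the 17 passed the filter on dim probes. The one that did not, the dimmest of 4 Mgll probes, was well above background on 0 of 20 arrays. Cd36, Slc27a1, Pnpla2, Lipe and Dgat1 had 1 probe each, and the other 5 genes had several.

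The samples came from 20 male C57BL/6J mice aged 6 weeks. Their mothers, 8 weeks old when the diets began 3 days ahead of mating, ate a semisynthetic diet with 40% (mHFD, 10 mice) or 10% (mLFD, 10 mice) of its energy from fat through pregnancy and lactation. Every offspring was caged alone on the low-fat diet from weaning and was killed after a fast of 2 h, so the groups differ in what the mother ate and not in the diet at the time of sampling. Each sample carried Cy5, and the shared reference pooled in equal amounts from all 20 carried Cy3. Values are log2 ratios of sample to pool, and a difference of 1 between mice is a doubling. The dyes were not swapped, so an offset from 0 shared by all mice cannot be told apart from an effect of the dye.

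Skeletal muscle takes up fatty acids that lipoprotein lipase frees from circulating triglyceride on the capillary wall, helped across the membrane by CD36 and fatty acid transport proteins and carried inside the cell by a fatty acid binding protein. Acyl-CoA synthetases trap them as acyl-CoA, which is either oxidised or built into triglyceride and stored in lipid droplets. Stored triglyceride is released again by 3 lipases acting in turn: ATGL, hormone-sensitive lipase and monoglyceride lipase. The same genes are active in adipocytes, so in whole muscle their RNA may come from fibres and from fat cells lying between them, and more cells of a type cannot be told apart from more RNA per cell.

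All 7 skeletal muscle fibre markers listed for the tissue were well above background on 20 of 20 arrays, among them Acta1, the actin of the thin filament, and Tnnc2, fast troponin C, the 2 with the brightest probes. Of 10 adipocyte markers 9 passed the filter, so fat cell RNA was also present. The number of probes well above background ranged over the arrays from 15506 to 23410. Each of the 5 slides held 2 mHFD arrays at positions 1 and 3 and 2 mLFD arrays at positions 2 and 4, so an effect that alternates between odd and even positions and the maternal diet cannot be told apart. Litters were not labelled, and up to 4 siblings could be in a group, so p-values may be too small.

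The first comparison asked whether the maternal diet left a difference in these genes. None of the 10 genes differed between mHFD and mLFD in limma's moderated test with Benjamini-Hochberg adjustment over all probes (smallest adjusted p = 0.746, for Acsl1), against 0.00521% of all 19206 probes tested. At an unadjusted p under 0.05 the count was also 0, against 7.14% of all probes. By the brightest probe 5 genes were higher and 5 lower in mHFD, from -0.04 (Cd36) to 0.14 (Lpin1), with a median of -0.0014 beside 0.0030 over all probes. The 95% intervals of all 10 lay between 0.867-fold and 1.29-fold. For none of the 10 did the 2 groups fail to overlap, which 0.0106% of 18793 probes with 20 values did.

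**Figure D1:**
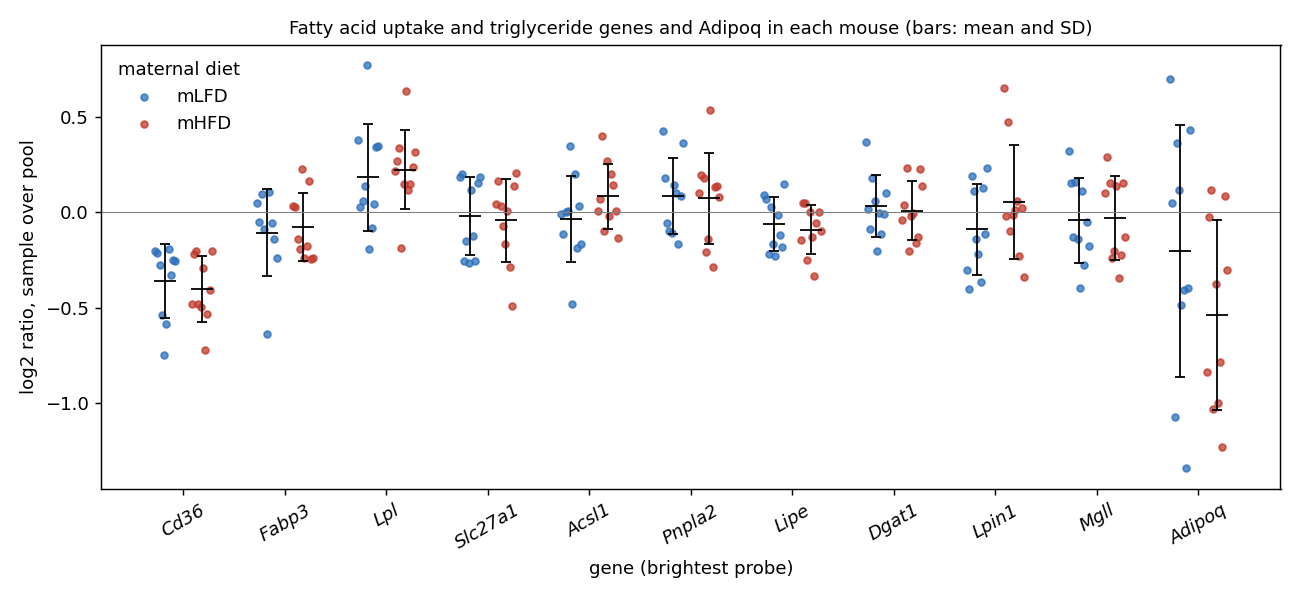
Log2 ratio of sample to pool (vertical axis) for each of the 10 genes and for Adipoq, 1 point per mouse, mLFD in blue and mHFD in red, with bars for the mean and the SD (n = 10 per group, 9 for Fabp3 in mLFD). The groups overlap for every gene, and Adipoq, at the right, spreads over 4.11-fold where the 10 genes spread over 1.39-fold to 2.07-fold.

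Among the uptake genes, Cd36, the membrane receptor for long-chain fatty acids, had log2 ratios from -0.72 to -0.20 with a median of -0.44 in mHFD (probe at chr5:17288600-17288659, build mm9). In mLFD they ran from -0.75 to -0.19 with a median of -0.26. All 20 values thus lay below 0, although the pool holds these same 20 samples, so only differences between mice are read. The ranges of the groups were nearly the same. The difference was -0.04 (SE 0.08, 95% interval -0.21 to 0.12, limma p = 0.573), and mHFD was higher on 2 of 5 slides.

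Slc27a1, the fatty acid transport protein FATP1, ran from -0.49 to 0.21 with a median of 0.02 in mHFD (chr8:74110256-74110315). The mLFD mice spanned -0.27 to 0.20 around a median of -0.0050. The lowest mouse, mHFD 08, stood below all others, and above it the groups overlapped throughout. The difference was -0.02 (SE 0.09, 95% interval -0.20 to 0.16, limma p = 0.810).

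Lpl, the enzyme that frees fatty acids from circulating triglyceride, had 2 probes. On the brighter one (chr8:71430267-71430326) mHFD ran from -0.19 to 0.63 with a median of 0.23. In mLFD it ran from -0.19 to 0.77 with a median of 0.10. Single mice set both upper ends, mHFD 06 and mLFD 05. The difference was 0.04 (SE 0.10, limma p = 0.698), and on the other probe (chr8:71425050-71425109) it was 0.12 (SE 0.11, limma p = 0.294). Over mice of 1 group the 2 Lpl probes, whose starts lie 5217 bases apart, were only loosely related (r = 0.15, 20 arrays), so mice that read high on one did not regularly read high on the other.

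Fabp3, the fatty acid binding protein of heart and muscle, also had 2 probes, and they share most of their sequence. The first 30 bases of each are shown because their disagreement limits what can be said of this gene; capitals mark the 21 printed bases that both hold.
Fabp3 probe at chr4:129992643-129992702, + strand: tttatttttTAAAACTGTATCCAAAGGGTG
Fabp3 probe at chr4:129992652-129992711, + strand: TAAAACTGTATCCAAAGGGTGctccaaggt
The probes are 60 bases long and share 51 of them. On the brighter probe, the second of the pair printed, mHFD ran from -0.25 to 0.23 with a median of -0.16, and mLFD from -0.64 to 0.10 with a median of -0.06. The lowest mouse of all, mLFD 06, stood apart from the rest of its group. One mLFD array, mLFD 04, carried an outlier flag on both probes and was left out of these fits, which leaves 9 values in mLFD. The difference was 0.03 (SE 0.09, limma p = 0.738), and on the dimmer probe it was 0.02 (SE 0.12, limma p = 0.890).

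The group difference of Fabp3 was thus near 0 on both probes, but single mice were not placed alike. Mouse mLFD 03 read 0.10 on the brighter probe and -0.80 on the dimmer. Mouse mHFD 05 read 0.23 and -0.24. Within groups the 2 probes had r = 0.20 over 19 arrays, and neither was saturated on any array. Among the 151 pairs of tested probes that overlap by 50 bases or more the median r was 0.41, and 27.15% of the pairs stood at or below the Fabp3 pair. With the scanner software's own log ratio r was 0.60, and with arrays only centred on their median it was 0.93. The 151 pairs were not read in these 2 settings, so a higher r there cannot be taken as better agreement of the Fabp3 probes. Values of Fabp3 in single mice therefore depend on the probe and on the normalization.

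Acsl1, the main acyl-CoA synthetase of muscle, activates fatty acids. On its brighter probe (chr8:47621232-47621291) mHFD ran from -0.14 to 0.40 with a median of 0.04. For mLFD the range was -0.48 to 0.35 and the median -0.0045. The groups overlapped over most of their range, with mLFD 06 the lowest mouse. The difference was 0.12 (SE 0.08, 95% interval -0.05 to 0.29, limma p = 0.166), and it was positive on 5 of 5 slides, from 0.00090 to 0.19. With position on the slide as a linear covariate it was -0.0019 (limma p = 0.980). The other probe (chr8:47619774-47619833) had a difference of 0.11 (SE 0.11, limma p = 0.351), higher on 3 of 5 slides.

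In triglyceride synthesis, Lpin1 is the phosphatidate phosphatase that makes diacylglycerol, and Dgat1 adds the last fatty acid. Lpin1 spread more than any other of the 10 genes, 2.07-fold over the 20 mice. On its brighter probe (chr12:16543695-16543754) mHFD ran from -0.34 to 0.65 with a median of -0.0005. Among mLFD mice it ran from -0.40 to 0.23 with a median of -0.13. Mice mHFD 01 (0.65) and mHFD 03 (0.47) lay above every mLFD mouse, and the other 8 mHFD mice lay within the mLFD range. The difference was 0.14 (SE 0.11, 95% interval -0.09 to 0.37, limma p = 0.217), and 0.06 (SE 0.09, limma p = 0.485) on the other probe (chr12:16542515-16542574).

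One mouse carried much of the Lpin1 difference. On slide 1, which holds mHFD 01, the difference was 0.67, and on the other 4 slides it lay between -0.22 and 0.18. Without mHFD 01 it was 0.07, and without slide 1 it was 0.0090. The reading of mHFD 01 itself was repeated by the other probe, at 0.64, and the 2 Lpin1 probes moved together over mice (r = 0.87, 20 arrays). The high Lpin1 value in this mouse was therefore not a matter of 1 probe.

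Dgat1 ran from -0.20 to 0.23 with a median of -0.01 in mHFD. In mLFD it ran from -0.20 to 0.37 with a median of 0.0066. The lower ends of the groups were alike, mLFD 01 was the highest mouse, and mHFD 03 and mHFD 09 came next. The difference was -0.02 (SE 0.07, 95% interval -0.16 to 0.12, limma p = 0.739). Its probe is shown because the relation with Adipoq described further on rests on it alone.
Dgat1 probe at chr15:76333128-76333274, - strand: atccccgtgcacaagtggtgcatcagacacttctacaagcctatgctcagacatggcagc
The file places this 60-base probe over 147 bases of the genome, 87 more than its own length, so its bases do not lie in one unbroken genomic stretch.

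Lipolysis was represented by 3 enzymes. Pnpla2, which encodes ATGL and opens the breakdown of stored triglyceride, ran from -0.29 to 0.54 with a median of 0.12 in mHFD (chr7:148645928-148645987). The mLFD values lay between -0.17 and 0.42 with a median of 0.09. Both the highest and the lowest mouse were mHFD, mHFD 06 and mHFD 07. The difference was -0.01 (SE 0.09, limma p = 0.878).

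Lipe, hormone-sensitive lipase, was the dimmest of the 10 genes: its probe (chr7:26165828-26165887) was well above background in 4 of 10 mHFD and 8 of 10 mLFD arrays. Its log2 ratios ran from -0.33 to 0.05 with a median of -0.08 in mHFD, and from -0.23 to 0.15 with a median of -0.07 in mLFD. In these values the spread of 1.39-fold was the smallest of the 10 genes. The difference was -0.03 (SE 0.06, limma p = 0.620). It was -0.38 (SE 0.28, limma p = 0.195) with the scanner software's log ratio and -0.50 (limma p = 0.0958) in the Cy5 channel alone. In the authors' deposited table it was 0.04 (limma p = 0.758). The size of the Lipe difference is therefore not fixed by these arrays, and its small spread and SE depend on the processing.

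Mgll, monoglyceride lipase, ran on its brightest probe (chr6:88778292-88778351) from -0.35 to 0.29 with a median of -0.02 in mHFD. In mLFD it ran from -0.40 to 0.32 with a median of -0.09. The groups overlapped over their whole range. The difference was 0.01 (SE 0.09, limma p = 0.902), and on the next 2 probes it was 0.09 (limma p = 0.277) and 0.06 (limma p = 0.377). On the second of the Mgll probes by brightness mHFD was higher on 5 of 5 slides, from 0.05 to 0.14. With position on the slide as a linear covariate the difference on this probe was 0.03 (limma p = 0.767). The share of all probes with 1 sign on 5 of 5 slides was not computed, here, for Acsl1 or for Adipoq below.

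**Figure D2:**
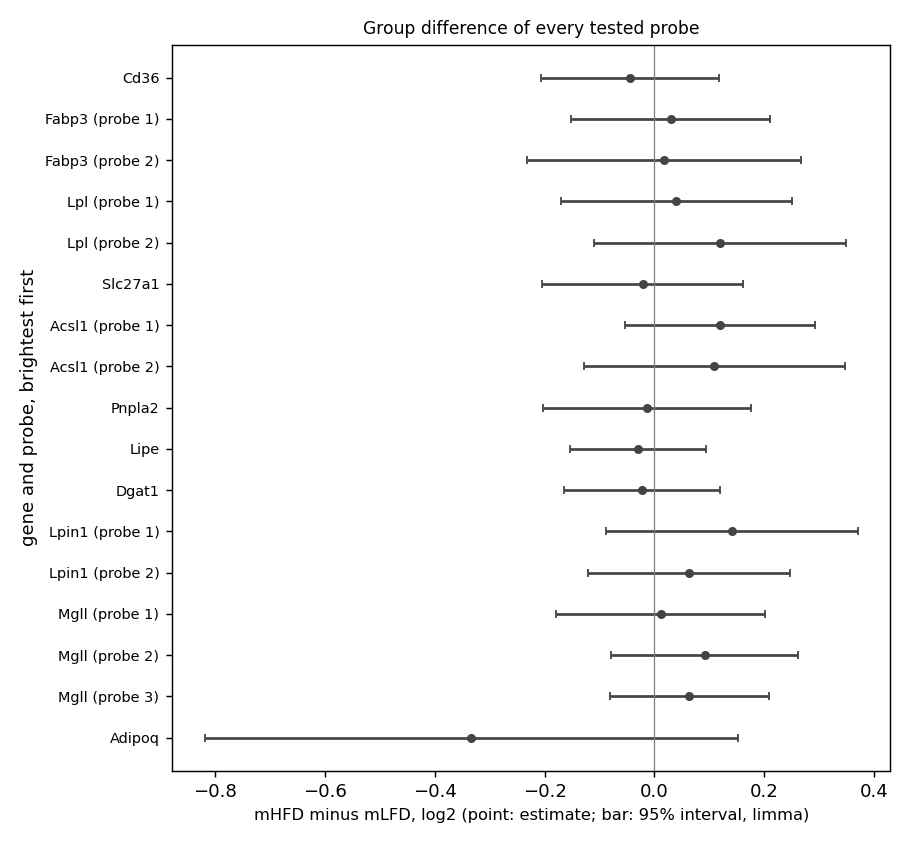
Difference mHFD minus mLFD on the log2 scale (horizontal axis) for each of the 16 tested probes of the 10 genes and for Adipoq (vertical axis), with the limma estimate as a point and its 95% interval as a bar. Every interval includes 0, and that of Adipoq is the widest.

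The sign of these differences was not fixed for most genes. Lpin1 was higher in mHFD under all 41 alternative settings, Acsl1 under 40 and Cd36 lower under 39, whereas Mgll kept its sign under 27 and Slc27a1 under 29 of 41. No member passed the threshold in the group comparison under any of the 41. They are not separate checks: 25 of them left out 1 array or slide. Aquantile scaling, changed filters and blocks for slide or replicate number left the Lpin1 difference at 0.14. Where a log2 difference of 0.3 was simulated at this size, the test found 60% of the probes given it. That simulation drew noise independently for each probe and called 166 probes, beside 1 in the data, so its adjusted threshold was easier to pass. The SEs of the 10 genes ran from 0.06 (Lipe) to 0.11 (Lpin1), beside a median of 0.0609 over all probes. For most of the 10 genes 60% may therefore be too high.

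The second comparison asked which of the 10 genes varied with Adipoq, the adipocyte hormone adiponectin, among mice of 1 group. Adipoq ran from -1.23 to 0.11 with a median of -0.58 in mHFD (chr16:23157576-23157635). In mLFD it ran from -1.34 to 0.70 with a median of -0.17. It varied far more between mice than any of the 10 genes, and the lowest mouse of each group was at a similar level. The difference was -0.33 (SE 0.23, limma p = 0.169, adjusted p = 0.747), lower in mHFD on 5 of 5 slides. All 9 adipocyte markers tested had a lower mean in mHFD, with a median difference of -0.33, and 0 of 9 passed.

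Dgat1 rose with Adipoq. Its slope within groups was 0.22 (SE 0.04, 95% interval 0.14 to 0.31), which is 1.17-fold more Dgat1 per doubling of Adipoq (limma p = 1.68e-05, adjusted p = 0.0115). It was the only 1 of the 10 genes past the threshold, against 0.359% of 19205 probes past it with a positive slope. In mHFD the correlation was r = 0.848 (permutation p = 0.00215, adjusted 0.0279) and rho = 0.842 (permutation p = 0.00344, adjusted 0.0344). In mLFD it was r = 0.824 (permutation p = 0.00279, adjusted 0.0279) and rho = 0.939 (permutation p = 0.00015, adjusted 0.0030). Without the 2 mice of each group farthest from the group's median Adipoq, r was 0.699 and 0.892.

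The relation thus appeared in both groups separately: the mice highest in Adipoq, mLFD 01 and mHFD 03, were also the highest in Dgat1 of their group. Adipoq and Dgat1 were read on the same arrays, so an error of an array enters both. The slope was positive under all 41 alternative settings, from 0.20 to 0.38, and passed the threshold under 30. Among the settings that lost the call, it was 0.20 without mLFD 01 (adjusted p = 0.0609), 0.22 without mLFD 01 and mLFD 08 together (adjusted p = 0.151) and 0.22 when slide entered as a fixed block (adjusted p = 0.127). It was 0.33 with the scanner software's log ratio (adjusted p = 0.107) and 0.22 in the authors' deposited table (adjusted p = 0.236). With the mean of the other adipocyte markers in place of Adipoq it was 0.27 (adjusted p = 0.000617).

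**Figure D3:**
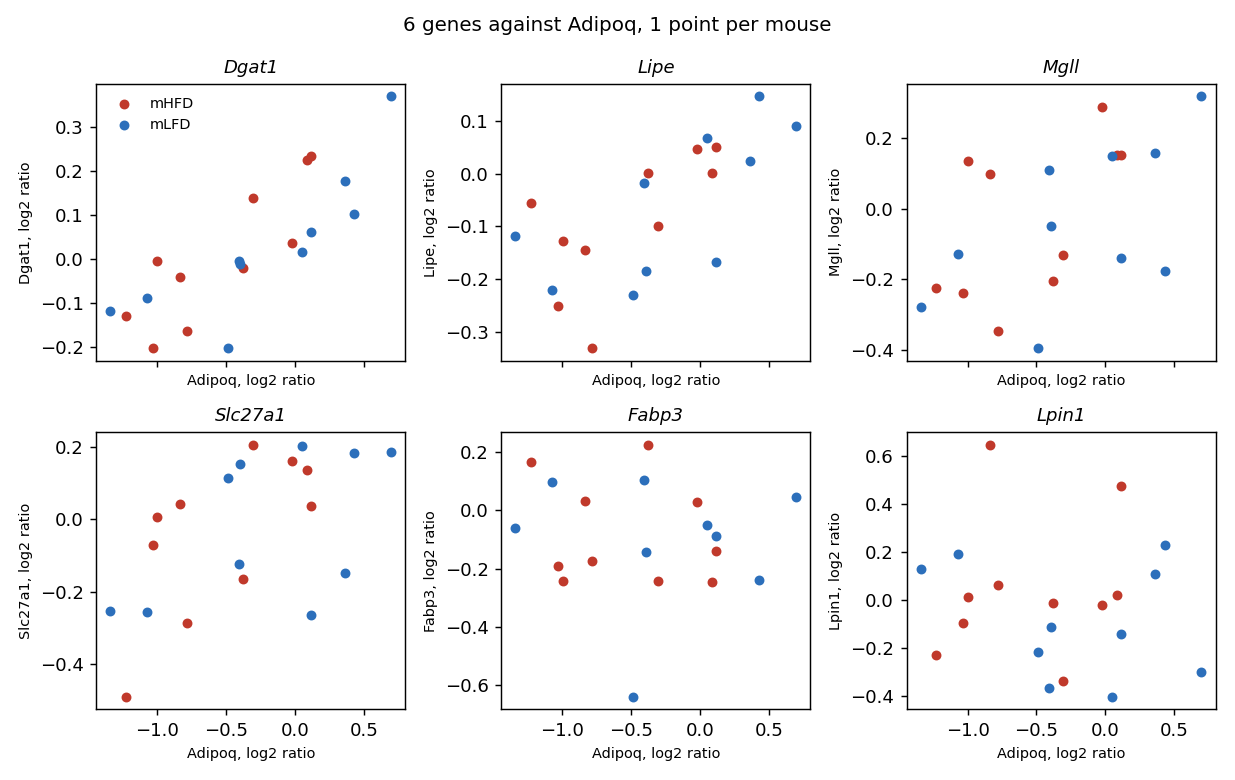
Log2 ratio of 6 of the genes (vertical axes, a scale per panel) against the log2 ratio of Adipoq (horizontal axes), 1 point per mouse, mHFD in red and mLFD in blue (9 mLFD mice for Fabp3). Dgat1 climbs with Adipoq in both colours, Lipe, Mgll and Slc27a1 scatter more widely around a rise, and Fabp3 (brighter probe) and Lpin1 have slopes of -0.03 and -0.02.

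In 8 of the 10 genes the slope was positive, with a median of 0.15 beside 0.0017 over all probes, where the 10th and 90th percentiles were -0.09 and 0.13. At an unadjusted p under 0.05 there were 4 genes with a positive slope and 0 with a negative one, against 7.62% and 5.21% of all probes, 12.8% in either direction. Besides Dgat1 these were Lipe, Slc27a1 and Mgll, which did not pass the correction. Lipe had a slope of 0.16 (SE 0.04, limma p = 0.0016, adjusted p = 0.128). Slc27a1 had a slope of 0.21 (SE 0.07, limma p = 0.0057, adjusted p = 0.203). With slide as a fixed block the Slc27a1 slope was 0.04 (limma p = 0.516), and with the replicate number as a block 0.07 (limma p = 0.318). Lipe had 0.16 and 0.20 in these 2 fits. In the authors' deposited table the Lipe slope was -0.0024 (limma p = 0.985), and without background correction it was 0.21 (adjusted p = 0.0377 in limma). Mgll had a slope of 0.22 (SE 0.07, limma p = 0.0059, adjusted p = 0.204) on its brightest probe, but 0.02 and -0.01 on the other 2, so its relation with Adipoq was seen on 1 probe of 3.

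None of the remaining 6 genes reached an unadjusted p under 0.05. Lpl had a slope of 0.16 (SE 0.09, limma p = 0.0732) and Pnpla2 one of 0.14 (SE 0.08, limma p = 0.101). Acsl1 stood at 0.08 and Cd36 at 0.06, each with an SE of 0.07. Lpin1 stood at -0.02 (SE 0.10) and at -0.08 (SE 0.08) on its other probe. Fabp3 stood at -0.03 (SE 0.08) on its brighter probe and at 0.19 (SE 0.10, limma p = 0.0770) on the other, so its probes disagreed here as well. Of the 20 correlations computed, 10 genes in 2 groups, those of Dgat1 passed the adjustment over the 20 and no other did.

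**Figure D4:**
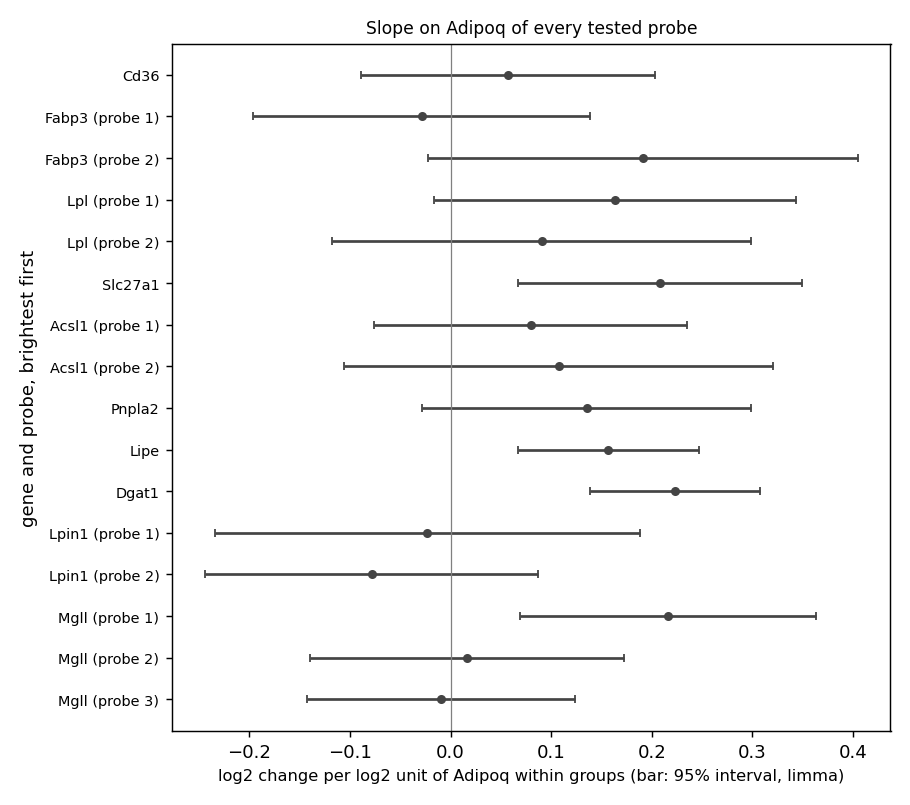
Slope on Adipoq within groups (horizontal axis, log2 change per log2 unit of Adipoq) for each of the 16 tested probes (vertical axis), as the limma estimate with its 95% interval. The interval of Dgat1 lies farthest from 0, those of Slc27a1, Lipe and the brightest Mgll probe also lie above 0, and the pairs of Fabp3 and the 3 Mgll probes differ among themselves.

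By the brightest probes the slopes did not differ detectably between mHFD and mLFD: for none of the 10 genes did the interaction of group and Adipoq pass (smallest limma p = 0.149, adjusted p = 0.999), against 0% of all probes past the threshold and 3.37% at an unadjusted p under 0.05. For Dgat1 the slope was larger in mHFD by 0.06 (limma p = 0.502). The dimmer probes of Lpl and Fabp3 had the largest such differences, 0.48 (limma p = 0.0171) and -0.49 (limma p = 0.0173), in opposite directions and with an adjusted p of 0.999 each. With Adipoq in the model, 9 of the 10 group differences were positive, beside 52.3% of all probes. None passed (smallest limma p = 0.106, adjusted p = 0.818), and 6.16% of all probes had an unadjusted p under 0.05. Slc27a1, Pnpla2, Lipe and Dgat1 went from a small negative to a small positive difference at equal Adipoq, Dgat1 from -0.02 to 0.05 (SE 0.05). Adipoq was lower in mHFD, so in this fit a positive slope on it raises the difference. These changes of sign are therefore no result apart from the slopes. The Acsl1 difference was 0.15 (SE 0.09) at equal Adipoq, the largest of the 10.

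Normalization bears on the slopes of the 10 genes as a group. When arrays were only centred on their median, without loess, 69.8% of all probes and 10 of the 10 genes passed, and the median slope of all probes was 0.27. Beside that shift of the whole array Dgat1 stood at 0.38, Lpin1 at 0.41, Fabp3 at 0.52 and Lipe at 0.12, so Lipe lay below the median probe, and 8 of the other 9 genes had a steeper slope than Dgat1. In the Cy5 channel alone the slope of Pnpla2 was -0.03 and that of Lpin1 0.07, both of the opposite sign. Within groups Adipoq itself had r = 0.19 with the number of probes well above background and r = -0.19 with the scale factor of Cy5, described without a test. Its r with the mean of the endothelial list was 0.01, with skeletal muscle fibres -0.08 and with fibro-adipogenic progenitors 0.65.

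The pathway around the 10 genes was read through 6 lists with 53 genes, the 10 included, of which 50 were tested. In the group comparison 0 of 50 passed, against 0.00521% of all probes, and 7 had an unadjusted p under 0.05, which 7.14% of all probes had. For the slope on Adipoq 4 of 50 passed, all upward, against 0.359% of all probes with a positive slope: Dgat1, Agpat2, Agpat3 and Plin2.

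Among 8 uptake genes, 3 were higher and 5 lower in mHFD, with a median difference of -0.02 and a median slope of 0.06. The smallest p-values belonged to Got2, a mitochondrial aminotransferase also found at the plasma membrane, with a difference of -0.12 (SE 0.07, limma p = 0.0969), and to Fabp5, a fatty acid binding protein, with -0.31 (SE 0.20, limma p = 0.123). Fabp5 had a slope of 0.45 (SE 0.15, limma p = 0.0068, adjusted p = 0.220). No uptake gene passed in either comparison.

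In the lipoprotein lipase system, 5 of 6 genes were higher in mHFD, with a median of 0.05. Angptl4, a secreted inhibitor of Lpl, had a difference of 0.44 (SE 0.19, limma p = 0.0288, adjusted p = 0.690). Sel1l, which helps Lpl leave the endoplasmic reticulum, had 0.09 (SE 0.04, limma p = 0.0167, adjusted p = 0.690). The slope on Adipoq was largest for Gpihbp1, the capillary anchor of Lpl, at 0.17 (SE 0.07, limma p = 0.0216, adjusted p = 0.314). Lpl itself, as given above, stood near 0 in the group comparison while its inhibitor had the largest difference of the list.

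Of 8 fatty acid activation genes, 6 were higher in mHFD, with a median of 0.06. The smallest p belonged to Acot13, a thioesterase that splits acyl-CoA, with 0.23 (SE 0.10, limma p = 0.0411, adjusted p = 0.690). Acot2, a mitochondrial thioesterase, followed with 0.11 (SE 0.08, limma p = 0.149). Acsl5, another acyl-CoA synthetase, had a slope of 0.13 (SE 0.05, limma p = 0.0130, adjusted p = 0.268), and Acot1, a thioesterase, one of -0.10 (SE 0.08). None passed.

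Triglyceride synthesis held the clearest relation with Adipoq. Of its 14 genes 11 were tested, Lpin2, Mogat1 and Mogat2 being too dim. Slopes were positive for 8 of the 11, beside 50.7% of all probes, and 3 of the 11 passed, Dgat1 among them. Dgat2 had a steeper slope than Dgat1, at 0.44 (SE 0.12, limma p = 0.0012), but did not pass (adjusted p = 0.109). Agpat2, the acyltransferase that makes phosphatidic acid in adipocytes, had a slope of 0.84 (SE 0.14, adjusted p = 0.0055 in limma), and the related Agpat3 also passed, at 0.33 (adjusted p = 0.0368). In the group comparison 5 genes were higher and 6 lower. Agpat5, a mitochondrial relative, had a difference of -0.30 (SE 0.10, limma p = 0.0077, adjusted p = 0.690), and Gpat3, a glycerol phosphate acyltransferase, 0.20 (SE 0.09, limma p = 0.0422, adjusted p = 0.690).

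In lipolysis 7 of 9 genes were lower in mHFD, with a median of -0.07, and 8 of 9 slopes were positive, with a median of 0.13. Hilpda, an inhibitor of ATGL, had a difference of -0.11 (SE 0.06, limma p = 0.0564), and Abhd5, the activator of ATGL, -0.07 (SE 0.05, limma p = 0.196). Pnpla3, a lipase related to ATGL, had a slope of 0.13 (SE 0.04, limma p = 0.0058, adjusted p = 0.204), close to that of Lipe. None passed in either comparison.

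Among 8 lipid droplet coat genes, Plin2, the droplet protein of most non-fat cells, rose with Adipoq, with a slope of 0.54 (SE 0.11, adjusted p = 0.0253 in limma). Plin4, a perilipin of adipocytes and muscle, had a slope of 0.24 (SE 0.08, limma p = 0.0073, adjusted p = 0.227). In the group comparison Fitm2, which helps droplets form, had 0.23 (SE 0.08, limma p = 0.0063, adjusted p = 0.679) and Plin3 -0.25 (SE 0.09, limma p = 0.0104, adjusted p = 0.690), in opposite directions.

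Beside these, all 8 adipocyte markers other than Adipoq itself had a positive slope on it, with a median of 0.75, and 7 of the 8 passed. For Acvr1c, which did not, the slope was 0.16 (adjusted p = 0.119 in limma). The brightest were Fabp4, the fatty acid binding protein of adipocytes, with a slope of 0.63 (SE 0.07), and Cfd, adipsin, with 0.89 (SE 0.10). These 7 slopes were larger than that of Dgat1, and the slope of Acvr1c was smaller. In the other 7 cell type lists 0 genes passed. The endothelial Vwf and Egfl7 had slopes of 0.07 and 0.02, the macrophage Itgam and Csf1r 0.10 and 0.0026, and the muscle fibre Acta1 and Tnnc2 0.0014 and 0.07. Larger slopes that did not pass were also found in these lists, singled out here after their values were seen. Dcn, a matrix proteoglycan of the progenitor list, had 0.33 (limma p = 0.0042). Actn3 and Tnnt3 of fast fibres had 0.21 (limma p = 0.0080) and 0.18 (limma p = 0.0250). The macrophage genes went both ways: Mrc1 had 0.17 (limma p = 0.0264), Lyz2 -0.12 and Adgre1 -0.11, and 4 of 6 slopes were positive. How far adipocyte RNA enters the Dgat1 values was not tested.

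Among themselves the 10 genes varied partly together over the 20 mice, with the group means taken out. Of 45 pairs 12 had r above 0.5 and 0 had r below -0.5, with a median of 0.29. Dgat1 and Mgll were most alike (r = 0.73), and Dgat1 and Lipe followed (r = 0.71). Cd36, Slc27a1, Pnpla2 and Lipe also varied together in most pairs, for example Cd36 with Pnpla2 (r = 0.58) and Slc27a1 with Pnpla2 (r = 0.58). Fabp3 varied with Acsl1 (r = 0.60) and in the opposite sense to Slc27a1 (r = -0.43). Lpin1 had r between -0.07 and 0.12 with each of the other 9. These values share their arrays and are given without a test. The share of other gene pairs with r above 0.5 was not computed. The 12 pairs therefore cannot be read as particular to these genes.

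**Figure D5:**
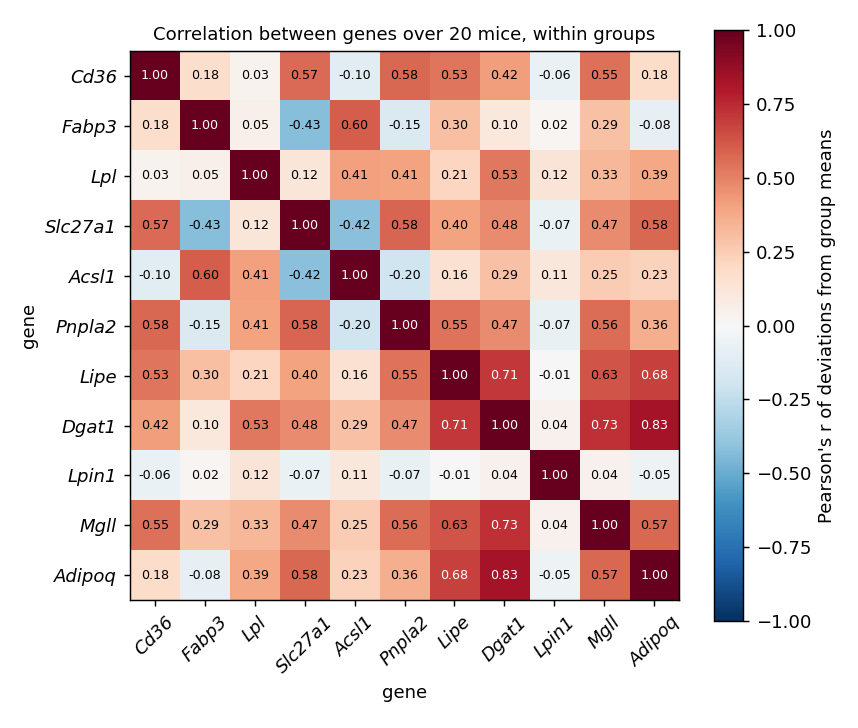
Pearson's r between the 10 genes and Adipoq over 20 mice (19 for Fabp3), computed on deviations from the group means, with red for positive and blue for negative values and 1 gene per row and column. Dgat1 has its largest values with Adipoq (0.83), Mgll and Lipe, and the row of Lpin1 is close to 0 throughout.

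The genes whose within-group pattern was most like each member's were sought among all measured on 20 arrays, again as a description. For Dgat1 they were Pde3b (r = 0.89), the phosphodiesterase through which insulin restrains lipolysis, and Agpat2 (r = 0.88), both known from adipocytes. For Fabp3 they were Mfhas1 (r = 0.78, over 19 arrays) and Pdk4 (r = 0.76), the kinase that shuts glucose out of oxidation. For Lpin1 they were the nuclear receptor Nr4a1 (r = 0.82) and Zbtb16 (r = 0.81), a transcription factor. For Slc27a1 they were Polr1a (r = 0.93), a subunit of RNA polymerase I, and Bckdha (r = 0.91), of branched-chain amino acid oxidation.

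For the other genes the nearest patterns were of mixed kinds. Lpl was nearest to ENSMUST00000067298 (r = 0.91) and Prrg2 (r = 0.89). Lipe was nearest to H2ax (r = 0.88), a histone, and Ergic1 (r = 0.82). Acsl1 was nearest to ENSMUST00000169045 (r = 0.87) and Rpl6 (r = 0.85), a ribosomal protein. Cd36 was nearest to Bod1 (r = 0.85) and 9930104L06Rik (r = 0.85). Mgll was nearest to Ifnar2 (r = 0.82) and Tcof1 (r = 0.81), and Pnpla2 to Senp3 (r = 0.81) and Ube2q2 (r = 0.80). Of the 10 genes, only Dgat1 had a gene of the 6 pathway lists among its nearest 2.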

How the data were processed

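RNA of 20 quadriceps samples (200 ng each) was labelled with Cy5 and hybridised to 2-colour Agilent arrays against a Cy3-labelled pool, with no dye swap. Spots had been read with Agilent Feature Extraction 10.7.3.1, per the submitters' processing notes, and probe positions refer to mm9, per the file headers. The deposited scanner files hold intensity values of both dyes and a log10 ratio that the authors' software had background-subtracted and dye-normalized. The authors' deposited table holds log2 values of 19377 spots with a median of 7.54 in every array; set against the scanner values it follows Cy5 corrected by Cy3 (gene-centred r of 0.965 or more), and its background correction and centring are not given in the sources used here.

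Background correction used normexp on the mean signals with an offset of 50, followed by loess within each array. Control spots (1377) and outlier spots were left out, saturated ones stayed in, and repeated spots were averaged to 1 value per probe. The filter asked for a Cy5 signal well above background on 10 or more of the 20 arrays, which 19206 of 39429 probes (15303 genes) met. RefSeq (GRCm38.p6) identifiers matched 27234 probes and updated their names; otherwise the file's name was kept. Gene models of mm9 were not used here, and probes are therefore placed by coordinates only. Where a gene had several probes, the brightest stood for it.

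Limma 3.58.1 in R 4.3.3 was fitted over all 20 arrays, two-sided, with Benjamini-Hochberg adjustment over all probes and a threshold of 0.05: for the group, for the slope on Adipoq (the deviation from its group mean) beside the group, for their interaction, and for the group at equal Adipoq. Correlations were tested by 100000 permutations in SciPy 1.17.1, two-sided. Precision is limited by the number of arrays, and the SE of a group difference had a median of 0.0609. On simulated data of 19206 probes, 60% of probes changed by 0.3 and 97% of those changed by 0.6 between groups were recovered. So were 64% of slopes of 0.25 and 95% of slopes of 0.5, from 100 probes each. Noise there was independent between probes, and 166 probes were called for the group and 167 for the slope, beside 1 and 71 in the data.

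The 10 members and all gene lists were chosen with earlier results of these data known. Named genes were the members, Adipoq and the 2 genes of smallest p in each pathway list for each comparison. The 2 brightest of 4 cell type lists were also named, and for each member the 2 genes of most similar pattern. Agpat3, Dgat2, Acvr1c, Dcn, Actn3, Tnnt3, Mrc1, Lyz2, Adgre1 and the Fabp3 probe pair were singled out after their values were seen. Alternatives changed the normalization, background, channel, source table, filter, probe choice, block, covariate and the arrays used.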

Additional observations from a re-analysis of the deposited data

Results flagged for a closer look

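In 22 combinations of a gene (the 10 members and Adipoq, brightest probe) and a group, 1 sample stood apart by Dixon's criterion, where chance gives about 1 in 20, or 1.1 of 22. Fabp3 in mouse mLFD 06 was low, at -0.64 against -0.24 for the next lowest mLFD mouse; the gap was 0.538 of the group's whole range. On the other Fabp3 probe the same mouse read -0.60, where mLFD 03 was lower still at -0.80. The same mouse was the lowest of its group for Acsl1, Lipe, Dgat1 and the brighter probes of Lpl and Mgll, though not far enough from the others to meet the criterion. Without mLFD 06 the Fabp3 difference between groups was -0.04, of the opposite sign to the 0.03 with it, and neither passed the threshold.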

How the results depend on the processing

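In the group comparison 0 of the 10 genes passed under any of 41 alternatives, and over all probes 1 passed. That count was 0 with median centring, the scanner software's log ratio, the authors' deposited table, the Cy5 channel alone, slide as a fixed block, position as a covariate, Adipoq in the model and the other adipocyte markers in the model, and 2 with the replicate number as a block. It was 0 to 1 when 1 array or slide was left out. Scaling of intensity between arrays (Aquantile) leaves log ratios as they are and moved nothing.

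Group differences turned sign under these alternatives, none past the threshold. Most of these were near 0, but that of Acsl1 was 0.12 before position entered the model. With the scanner software's log ratio Fabp3 was -0.028, Lpl -0.0097, Slc27a1 0.088 and Mgll -0.013. With median centring Fabp3 was -0.055, Lipe 0.013 and Mgll -0.0053. For the Cy5 channel alone Cd36 was 0.022, Fabp3 -0.010 and Slc27a1 0.13. In the authors' deposited table Lipe was 0.044 and Mgll -0.026. With position as a covariate Fabp3 was -0.031, Lpl -0.0088, Slc27a1 0.00086, Acsl1 -0.0019, Pnpla2 0.022 and Mgll -0.022. With the number of probes well above background as a covariate Slc27a1 was 0.0095 and Pnpla2 0.010. With Adipoq in the model Slc27a1 was 0.048, Pnpla2 0.031, Lipe 0.022 and Dgat1 0.051, and with the other adipocyte markers they were 0.022, 0.036, 0.024 and 0.058 in the same order. Leaving out 1 array or slide gave ranges of -0.12 to 0.036 for Cd36, -0.061 to 0.077 for Fabp3, -0.0058 to 0.11 for Lpl, -0.073 to 0.028 for Slc27a1, -0.066 to 0.026 for Pnpla2, -0.063 to 0.020 for Dgat1 and -0.044 to 0.064 for Mgll. The causes were not tested.

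For the slope on Adipoq, the 71 probes past the threshold became 13404 with median centring, 15 for the Cy5 channel alone, 30 in the authors' deposited table, 30 with the replicate block and 7 without mLFD 01 and mLFD 08. Of the 10 genes 1 passed, Dgat1. The count was 10 with median centring and 2 without background correction (Dgat1 and Lipe). It was 0 with the scanner software's log ratio, the Cy5 channel alone (Dgat1 slope 0.31, adjusted p = 0.364 in limma), the authors' deposited table, slide as a fixed block, the replicate block (0.26, adjusted p = 0.216) and without mLFD 01 and mLFD 08. Leaving out 1 array or slide gave 11 to 109 probes and 0 to 1 of the 10 genes. The lowest count came without slide 1 and the highest without mLFD 05, and it was 35, 47, 39 and 44 without mLFD 01, mLFD 03, mLFD 08 and mHFD 09. Dgat1 lost the call without mLFD 01 and without slide 1, 2, 4 or 5 (adjusted p = 0.134, 0.104, 0.0571 and 0.0939 in limma); leaving out a slide also leaves fewer arrays.

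Some slopes turned sign, among them those of Pnpla2 and Lipe, which stood at 0.14 and 0.16 above. Fabp3 was 0.52 with median centring, 0.018 with slide as a fixed block, 0.081 as the mean of its probes, 0.020 on the other adipocyte markers and -0.097 to 0.032 when 1 array or slide was left out. Lpin1 was 0.41 with median centring, 0.075 for the Cy5 channel alone, 0.074 without mLFD 01 and mLFD 08 and -0.079 to 0.086 when 1 array or slide was left out. Pnpla2 was -0.031 in the Cy5 channel alone, Cd36 -0.026 with slide as a fixed block and Lipe -0.0024 in the authors' deposited table. The labels do not say that equal replicate numbers mark a pairing. Same-numbered arrays, which share a slide, had r from -0.0072 to 0.358 (median 0.177, over 0.1 for 8 of 10 numbers), beside a median of 0.098 for other numbers on the same slide and -0.053 across slides, and 3 of 10 mHFD arrays correlated best with their own number. This is a hint from the data that pairing by number or slide may exist, short of all 10 numbers; the replicate block ended the Dgat1 slope call, as given above, and changed no other call of the 10 genes. Signal over background limits Lipe most, which was well above it on 12 of 20 arrays.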

Other observations

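Next after Pde3b and Agpat2, the gene nearest to Dgat1 in its pattern over mice was Plin1 (r = 0.88), the droplet coat protein of adipocytes. For Lpin1 it was Nfil3 (r = 0.80), a transcriptional repressor of circadian and immune programmes, after Nr4a1 and Zbtb16. For Lpl it was Apmap (r = 0.89), a membrane protein of adipocytes, and for Mgll it was Gpd2 (r = 0.80), the mitochondrial glycerol phosphate dehydrogenase. These were chosen after their values were seen and are given without a test. In the slow fibre list, 1 of 7 cell type lists whose group differences were not given above, 7 of 7 genes had a lower mean in mHFD. Their median difference was -0.22, and 0 of 7 passed. Over all probes 51.6% had a positive difference. The 7 genes were read on the same arrays, so they do not count as 7 separate results.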
